A study of Apis mellifera with 4 samples.

Results

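The gustatory receptors of the honey bee, Apis mellifera, were followed in the antennae of drones (males) and workers (females). The array carried 10 genes named AmGr with a number, out of 313 genes in all, and these 10 were taken by name alone. Each was printed as a long oligonucleotide in 2 spots, which over 4 two-colour arrays gave 80 spots, each read in both channels. Every array set 1 pool of mature drone antennae against 1 pool of worker antennae. A pool held 50 sets of whole antennae, taken from bees caught at the entrance of the hive, and each pool was a separate collection. The sources used here give no strain, age or colony, and a pool average hides differences between single bees. Drone cDNA carried Cy3 on arrays 1 and 3 and Cy5 on arrays 2 and 4 per the label fields, so the dyes were swapped evenly. The 4 arrays were treated as 4 biological replicates, and their number limits the precision.

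Gustatory receptors are membrane proteins of taste neurons. They belong to the same superfamily of insect chemoreceptors as the odorant receptors, and many are thought to act as ligand-gated cation channels. Honey bees taste with the antennae as well as with the mouthparts and the legs, and their gustatory receptor family is small for an insect. AmGr1 is known as a sugar receptor, AmGr2 as a partner that works with AmGr1, and AmGr3 as a fructose receptor related to one in Drosophila. AmGr10 is known to respond to amino acids. No ligand is given here for AmGr4 to AmGr9.

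The antennal origin of the RNA was checked first. The co-receptor of the odorant receptors AmOr002, the sensory neuron membrane protein AmSNMP and the odorant binding proteins AmOBP01 and AmOBP02 were all above the negative controls on 4 of 4 arrays in both sexes. The lowest of these 4 genes stood 3.53 to 26.9 times above the negative control threshold, depending on the channel. The housekeeping genes AmCytoActin, AmEF1alpha, AmRP49 and AmRPS3 also passed in every channel. The 5 opsins on the array were taken as markers of the compound eye and other tissue. By the rule given next none of the 5 was detected in either sex, although 1 to 2 arrays passed for some of them.

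Each receptor was set against 14 negative control spots printed with 7 kinds of control oligonucleotide, with a bright eighth kind, oligo 4, left out. Signal means the foreground median minus the local background median, averaged over both spots of a gene. The threshold was the mean plus 2 SD of the control spots in the same channel, and it ran from 58.7 on array 2 in drone to 1376 on array 3 in worker. A gene counted as detected in a sex when it passed on at least 3 of 4 arrays.

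By this rule 0 of 10 gustatory receptors were detected in drone antennae and 0 of 10 in worker antennae. Over all 313 genes the rule gave 28.8% in drone and 31.0% in worker, and the odorant receptors, which share the chemoreceptor superfamily, had 21 and 25 of 168. Of the 80 receptor values, 1 for each gene, array and sex, only 6 passed the threshold, or 7.50%, against 39.7% of the values of all genes. AmGr1, AmGr4, AmGr5, AmGr6, AmGr7, AmGr9 and AmGr10 passed in none of the 8 channels. These 7 receptors were 70.0% of the family, and 24.6% of all genes were likewise below the threshold in every channel. No test was made of these shares. A receptor below the threshold could not be detected with these arrays, and its absence is not shown. In whole antennae, few cells that express a gene and little RNA per cell cannot be told apart.

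**Figure D1:**
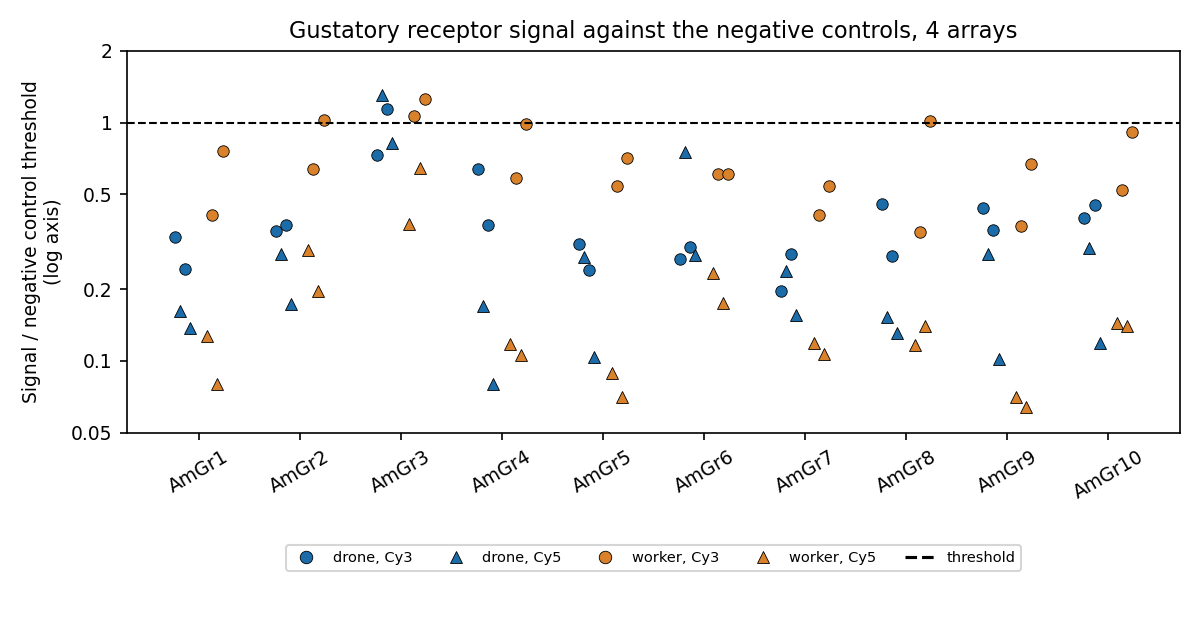
Signal of each of the 10 gustatory receptors divided by the negative control threshold of its channel (log axis), with 1 point for each sex (colour) and array, the symbol marking the dye and the dashed line at 1 the threshold. The 6 points above the line belong to AmGr3 (4), AmGr2 (1) and AmGr8 (1).

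The fructose receptor AmGr3 was the member that passed most often, in 4 of 8 channels. Its drone signal was 494.5, 76.5, 1110 and 493.5 on arrays 1 to 4, which passed the threshold on arrays 2 and 3. Its worker signal was 228, 85.5, 887.5 and 709, which passed on arrays 2 and 4. AmGr3 was thus above the threshold in both sexes on array 2 and in neither on array 1. The highest opsin stood at 1.21 times the threshold in worker on array 2 and 1.55 on array 4, above AmGr3 at 1.06 and 1.26. In drone it stood at 1.28 on array 2 and 0.618 on array 3, below AmGr3 at 1.30 and 1.14.

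The spots of AmGr3 were above most control spots even where the threshold was missed. In drone its signal exceeded 12, 14, 14 and 12 of the 14 control spots on arrays 1 to 4, and in worker 8, 13, 12 and 14. On array 3, where the gene was brightest, its spots read 1149 and 1071 in drone and 866 and 909 in worker. On array 2, the dimmest, they read 90 and 63 in drone and 95 and 76 in worker, where 1 spot of 2 passed. The control spots themselves spread widely, from -127 to 935 in the drone channel of array 3.

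**Figure D2:**
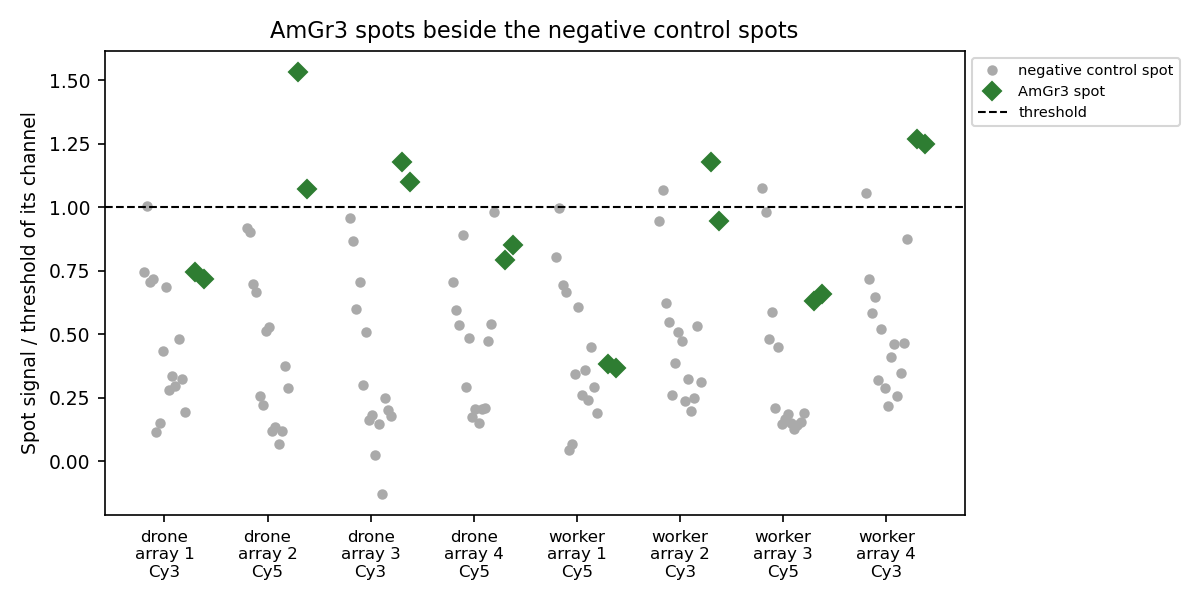
Both AmGr3 spots (green) and the 14 negative control spots (grey) in each of the 8 channels, as signal divided by the threshold of the channel (linear axis). Both AmGr3 spots lie above the line in drone on arrays 2 and 3 and in worker on array 4, and on array 1 both lie among the control spots.

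A second measure set each gene against the mean of the control spots rather than against their upper limit. On the log2 scale, and after background correction, AmGr3 was 1.01 ± 0.34 above the control mean in drone (limma, n = 4, adjusted p = 0.00874), or 2.02-fold. In worker it was 0.80 ± 0.40 above (limma, n = 4, adjusted p = 0.0963), which missed the threshold of 0.05. AmGr3 was the 1 receptor called above the control mean in drone, against 37.7% of all genes, and 0 were called in worker, against 39.9%. The drone call of AmGr3 was lost without array 3 (log2 value 0.76, limma adjusted p = 0.121) and with oligo 4 kept among the controls (0.44, adjusted p = 0.287). Without array 1 the worker value passed (1.05, limma adjusted p = 0.0470). The other 9 receptors lay at -0.47 to -0.12 from the control mean in drone and at -0.58 to 0.19 in worker, and none of them was called above or below it. Over the 10 receptors the median was -0.23 in drone and -0.19 in worker, where all genes had 0.34 and 0.66. In this fit limma gave every named gene the same error, 0.34 in drone and 0.40 in worker. The ± and the adjusted p thus rest on a spread pooled over genes and not on that of AmGr3 alone. The SD of AmGr3 itself over the 4 arrays was 0.52 in drone and 0.62 in worker. The spread between the control oligonucleotides is not covered by this error.

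Of the other sugar-related receptors, AmGr2, the partner of AmGr1, passed the threshold once. Its worker signal was 177.5, 51.5, 271.5 and 577.5 on arrays 1 to 4, and it passed on array 4 at 1.03 times the threshold. Its drone signal was 237.5, 16.5, 363 and 104, which did not pass on any array. The sugar receptor AmGr1 passed on no array. Its signal was 224, 9.5, 237 and 82.5 in drone and 77, 33, 110 and 429.5 in worker, which ran from 0.0799 to 0.762 times the threshold over the 8 channels. The receptor for amino acids, AmGr10, read 270, 17.5, 441 and 71.5 in drone and 87.5, 42, 193.5 and 513 in worker. These values were 0.119 to 0.911 times the threshold, the highest in worker on array 4, as in AmGr1 and AmGr2, and the sexes overlapped.

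Among the receptors with no ligand given here, AmGr8 passed once, in worker on array 4, at 1.02 times the threshold. Its signal was 71, 28, 193 and 572.5 in worker and 307.5, 9, 269.5 and 79 in drone. AmGr4 read 71.5, 47, 145.5 and 553 in worker and 432, 10, 360.5 and 48 in drone, and came close in the same channel, at 0.982. In both genes the drone signal was the higher on arrays 1 and 3 and the worker signal on arrays 2 and 4, the channels read in Cy3. Every other receptor had this order too, and how many of all genes had it was not counted. AmGr6 shared the order but had a narrower range, with 180.5, 44, 293 and 166.5 in drone and 141.5, 49, 240.5 and 341.5 in worker. AmGr5, AmGr6, AmGr7 and AmGr9 stayed at or below 0.711, 0.750, 0.543 and 0.667 in every channel. AmGr2 and AmGr8 each passed in 1 channel only, and it was the same one, worker on array 4, where 62.3% of all genes passed. The opsins AmLop1 and AmPteropsin also passed in that channel, at 1.55 and 1.45 times the threshold, and the other opsins did not.

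Of the 6 receptor values above the threshold, 5 were read in Cy3 and 1 in Cy5. Of all genes, 31.0% to 62.3% passed in the Cy3 channels and 27.5% to 44.7% in the Cy5 channels. Relative to the threshold, 8 receptors were higher in Cy3 than in Cy5 on 4 of 4 arrays, and AmGr3 and AmGr6 on 3 of 4. The share of all genes higher in Cy3 on 4 of 4 arrays was not counted, so this is not read as a trait of the receptors. The median of all genes was likewise higher in Cy3 on 4 of 4 arrays. It was 0.685, 1.37, 0.591 and 1.14 times the threshold in Cy3 on arrays 1 to 4, and 0.367, 0.793, 0.440 and 0.287 in Cy5. In AmGr1, AmGr2, AmGr4, AmGr8, AmGr9 and AmGr10 all Cy3 values lay above all Cy5 values, which makes 6 of 10 receptors against 24.3% of all genes. AmGr4, for example, read 0.643 ± 0.253 times the threshold in Cy3 and 0.118 ± 0.0381 in Cy5 (SD, n = 4 each). By sex the values overlapped in 10 of 10 receptors, and 4.79% of all genes had sexes that did not overlap.

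**Figure D3:**
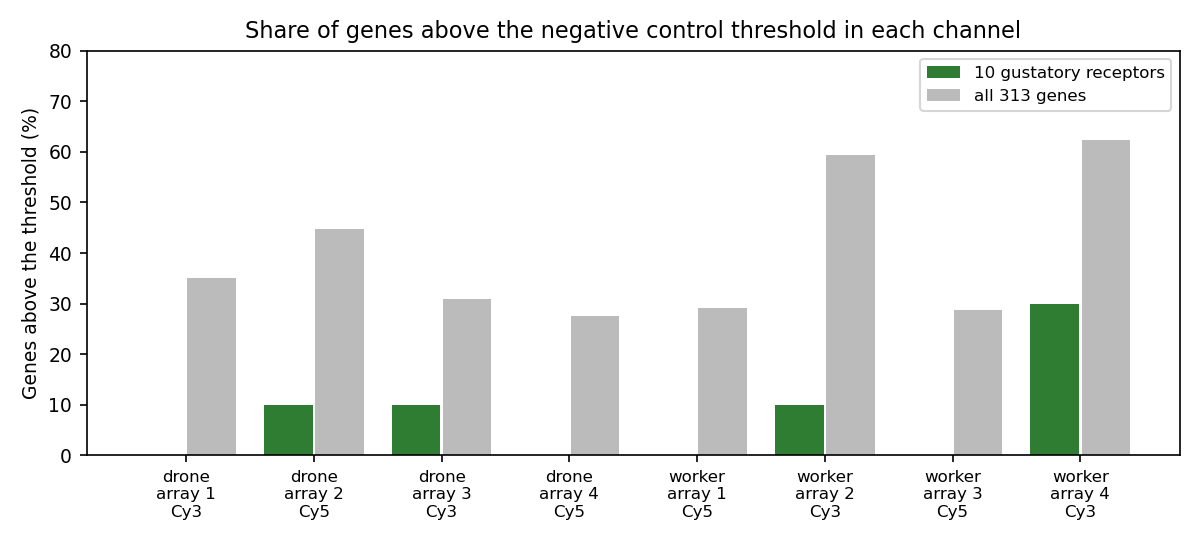
Percent of genes above the negative control threshold in each channel, for the 10 gustatory receptors (green) and all 313 genes (grey), with sex, array and dye below each pair. The receptors reach 0, 10 or 30 percent, below the grey bar in each of the 8 channels, and the highest green and the highest grey bar are both in worker on array 4, in Cy3.

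Whether any receptor differed between the sexes was tested on log2 ratios of drone over worker, normalized by loess within each array. With limma over 4 arrays and a limit of 0.05 on the adjusted p, 0 of 10 receptors were called, beside 11.8% of all 313 genes. At an unadjusted p under 0.05 the count was 0 of 10 and 68 of 313. The 10 ratios ran from -0.25 to 0.37, with a median of 0.10 beside 0.01 over all genes. With each array centred on the housekeeping genes instead of loess, these medians were -0.14 and -0.25, and the share of receptors above 0 went from 8 to 2 of 10. One receptor, AmGr3, had the same direction on 4 of 4 arrays, as did 32.6% of all genes. Where a receptor passed the control threshold in neither sex, the ratio compares 2 signals below that threshold, and no fold is given. Some of these signals were below every control spot of their channel. For AmGr2 and AmGr8, above the threshold on 1 worker array and on no drone array, the bound on a fold came out under 1, so none is given either.

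AmGr3 had log2 ratios of 0.07, 0.54, 0.56 and 0.33 on arrays 1 to 4. All 4 lay above 0, the smallest only just. Their mean was 0.37 ± 0.17 (adjusted p = 0.253), a fold of 1.30 with a 95% interval from 0.981 to 1.71. The interval thus included a fold of 1, and no difference between the sexes was called for AmGr3. The mean kept its sign under each scaling tried, down to 0.08 with housekeeping centring, and turned to -0.34 with the dyes that the labelling protocol texts name. The authors' deposited table, turned to the same direction, held 0.18, 0.75, 0.63 and 0.34 for this gene on the 4 arrays.

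AmGr9 had the next largest mean, 0.37 ± 0.19 (adjusted p = 0.341). Its ratios were 0.55, 0.21, 0.76 and -0.05 on arrays 1 to 4, so array 4 went the other way. AmGr9 was above the control threshold in no channel. Its drone signal of 297.5, 16.5, 346.5 and 61.5 exceeded 8, 6, 9 and 0 of the 14 control spots. In the authors' deposited table its turned values were 0.95, 1.02, 1.15 and -0.10. AmGr2 was the receptor with the lowest mean, -0.25 ± 0.18 (adjusted p = 0.510), with ratios of -0.69, 0.03, -0.16 and -0.20 on arrays 1 to 4. Array 1 held the only large one.

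Among the receptors the largest spread between arrays was in AmGr6. Its ratios were -0.85, 0.56, -0.22 and 1.12 on arrays 1 to 4. They were below 0 on both arrays with drone in Cy3 and above 0 on both with drone in Cy5, so the mean of 0.15 ± 0.33 (adjusted p = 0.881) averages opposite signs. AmGr4 ran the opposite way, with 0.79, -0.09, 0.41 and -0.66 on arrays 1 to 4. A fit with a coefficient for the dye put Cy5 over Cy3 at 0.69 ± 0.20 for AmGr6 (limma adjusted p = 0.107) and at -0.49 ± 0.20 for AmGr4 (adjusted p = 0.179). Neither was called, and 0.319% of all genes were. Both coefficients, like the ratios, are relative to the loess trend of each array. Before loess, the AmGr6 signal was the higher in Cy3 on every array. It was 180.5, 49, 293 and 341.5 in Cy3 on arrays 1 to 4 and 141.5, 44, 240.5 and 166.5 in Cy5. In 5 of 10 receptors the dye coefficient was larger than the sex ratio, as in 48.2% of all genes.

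**Figure D4:**
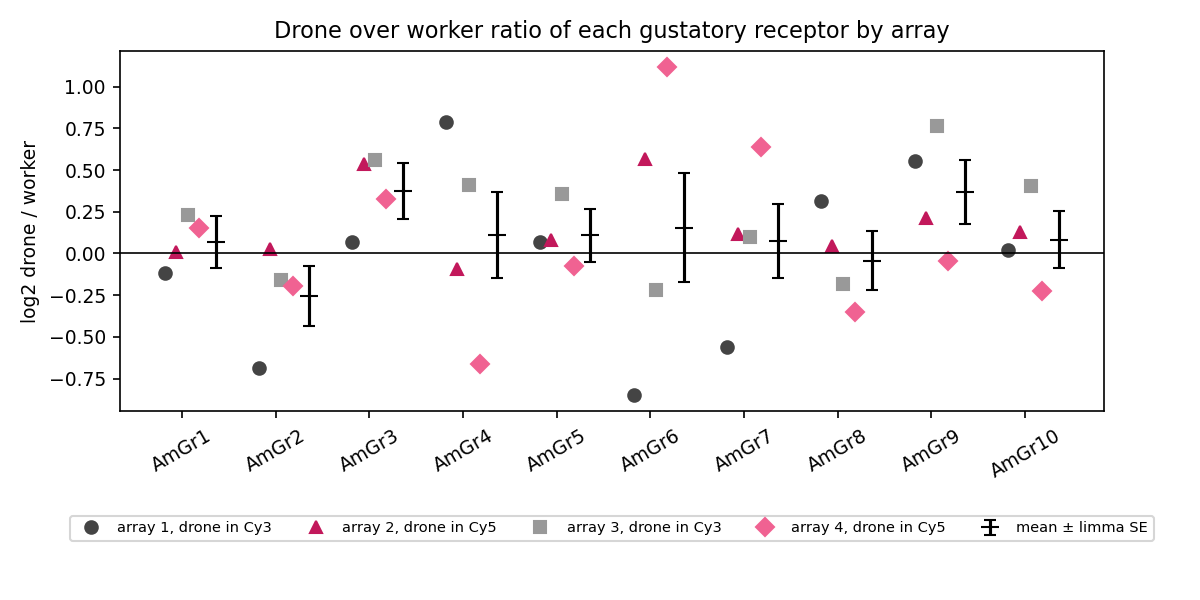
Log2 ratio of drone over worker for each of the 10 gustatory receptors, with 1 symbol for each array (grey, drone in Cy3; pink, drone in Cy5) and the mean with limma's standard error in black. With the dyes of the label fields AmGr3 has all 4 arrays above 0, while in AmGr6 the grey symbols lie below 0 and the pink ones above, and in AmGr4 the order is reversed.

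Arrays of like dye also went together over the 10 receptors. Across these genes, arrays 1 and 3, with drone in Cy3, correlated at r = 0.66, and arrays 2 and 4, with drone in Cy5, at r = 0.75. The 4 pairs of unlike dye had r of -0.38, -0.73, 0.03 and -0.29. Over all 313 genes the pairs of like dye had r of 0.76 and 0.73, and the 4 pairs of unlike dye had r from 0.39 to 0.78. By rank (Spearman), all genes had 0.62 and 0.63 in the like pairs and 0.04 to 0.45 in the unlike pairs. Closer ranks between arrays of like dye were thus not particular to the receptors. Over the 70 other genes that were above the controls in no channel, like pairs had 0.19 and 0.63 and unlike pairs -0.37 to 0.00. These are descriptions across genes, which share each array's hybridization and dyes. The error of a single spot, from the log2 ratios of both spots of a gene, was an SD of 0.24, 0.16, 0.14 and 0.30 for the receptors on arrays 1 to 4 and 0.18, 0.18, 0.22 and 0.21 for all genes.

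The remaining receptors had log2 means of -0.04 to 0.11, with adjusted p of 0.804 to 0.940. AmGr7 had ratios of -0.56, 0.12, 0.10 and 0.64 on arrays 1 to 4. AmGr8 had 0.31, 0.04, -0.18 and -0.35. The ratios of AmGr1, the sugar receptor, were closest together, at -0.12, 0.01, 0.23 and 0.15. AmGr5 and AmGr10 likewise stayed between -0.22 and 0.41, on both sides of 0. The 95% intervals of the log2 means of AmGr1, AmGr5 and AmGr10 were -0.31 to 0.45, -0.28 to 0.49 and -0.33 to 0.50, for signals that were below the control threshold throughout. The single receptor spot with saturated pixels was one of AmGr7 on array 4, where a few bright pixels put the Cy5 foreground mean at 3234 beside a median of 184. The signal used here rests on medians.

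Other genes of sensory signalling on the array were 3 G-protein alpha subunits and 4 arrestins. G-proteins relay signals from receptors inside the cell, and arrestins end such signalling. Of these 7 genes, 0 were called in either direction, and their median log2 ratio was 0.08. AmGpAsOlf, a G-protein alpha subunit, passed the control threshold on 4 drone and 2 worker channels, with ratios of 0.43, 0.51, 0.35 and 0.77 (mean 0.51 ± 0.16, adjusted p = 0.111). AmARR3, an arrestin, passed it on 4 drone and 3 worker channels, with ratios of -0.26, -0.32, -0.57 and 1.25. By the rule of at least 3 arrays, drone antennae had 2 of the 7 and worker antennae 1.

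The genes whose normalized levels ran most like those of AmGr3 over the 8 channels were AmGST6 (Pearson r = 0.89), AmTspan11 (0.88) and AmOr064 (0.87). The median r over the 312 other genes was -0.01. These 3 were picked as the highest of 312 correlations over 8 values, so their r is high in part by selection. Whether they exceed what such a choice gives was not tested. All 3 were above the controls on 4 of 4 arrays in both sexes. The log2 ratio of drone over worker was 0.52 ± 0.18 for AmGST6, a glutathione S-transferase (adjusted p = 0.160). For the tetraspanin AmTspan11 it was 0.27 ± 0.16 (adjusted p = 0.423). The odorant receptor AmOr064 was higher in drone, with a log2 ratio of 1.25 ± 0.17 (limma adjusted p = 0.00421). The 8 values come from 4 arrays and share their dyes and hybridizations.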

How the data were processed

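Spot intensities were deposited by the authors unnormalized, as foreground and local background in both dyes, per the file headers, with the percent of saturated pixels and a quality score per spot. The authors' deposited log2 ratio table (alternative only) came without a stated direction. Its 4 columns correlated at -0.98 to -0.91 with drone over worker from the scanner intensities, so they were read as worker over drone and turned. Their medians were -0.02, -0.09, -0.06 and 0.08, and how they were normalized and centred stays unknown. Scanner and software are not given in the sources used here.

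Dyes were taken from the label fields. The labelling protocol texts name the other dye for arrays 2, 3 and 4. Ratios used limma 3.58.1 in R 4.3.3: normexp background correction (offset 50) of foreground medians, loess with control spots at weight 0, spots averaged, lmFit and eBayes over 313 genes, two-sided, Benjamini-Hochberg adjustment, with ± as limma's standard error. Loess hides a shift shared by most genes. Levels against the control mean were fitted likewise for each sex, without loess. The normalized levels used for likeness and bounds followed loess and quantile normalization of average intensities. The fits were tested on simulated data with levels above those of most receptors here and without dye effects particular to a gene. The simulation therefore does not cover signals as low as those of most receptors. Named genes were the 10 members, the signalling genes, tissue markers, housekeeping genes and the 3 genes most like the member detected most often. Members and lists were chosen with earlier results of these data known. Of the 10 names, 1 (AmGr10) equals a RefSeq symbol (assembly Amel_HAv3.1) once Am is removed. Probe sequences and genome positions were not used here. Alternatives changed background, normalization, dyes, spot filters, threshold and arrays.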

Additional observations from a re-analysis of the deposited data

Results flagged for a closer look

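Of 50 sets of 4 array values examined, 5 held 1 value that stood apart from the other 3, where chance alone marks about 1 in 20 sets. Among the receptors this was the drone level of AmGr1 on array 4, at -1.11 (log2) against the control mean, with -0.22 to -0.08 on the other arrays. In the same channel AmGr4, AmGr5, AmGr8, AmGr9 and AmGr10 lay lower still, at -1.53 to -1.17. AmGr2, AmGr3, AmGr6 and AmGr7 lay higher there, with AmGr3 highest at 0.89. A low drone level on array 4 was thus not particular to AmGr1, and its cause was not tested. The other 4 sets with a value that stood apart were sex ratios of genes outside the family. On array 4, AmARR3 had 1.25 (others -0.57 to -0.26), the housekeeping gene AmCytoActin 1.28 (others -0.52 to -0.23) and AmGpAsQ, a G-protein alpha subunit, -0.97 (others 0.33 to 0.54). On array 2, AmOBP01 had 3.25 (others -0.12 to 0.12). Its spots held 30% to 100% saturated pixels in every channel except worker on array 2, which held 0%, so the sizes of these ratios were not measured and the gap between them cannot be read. The spots of the other 3 genes held no saturated pixels.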

How the results depend on the processing

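With the exceptions that follow, 0 receptors were called between the sexes and 0 detected under every alternative run. When 1 of 4 arrays sufficed for detection, 1 receptor passed in drone and 3 in worker (152 and 230 of all genes). With oligo 4 kept, 28 and 26 of all genes were detected, 257 were above in no channel, and 0 receptors stood above the control mean in drone. Receptors above in no channel numbered 5 (foreground means) to 10 (oligo 4 kept). Fits limited to detected genes held no receptor, and slide as a random block could not be fitted to 4 arrays on 3 slides. Averaging arrays of a slide and removing print block medians were chosen after seeing the data. The test of the sexes is itself paired, since each ratio sets the 2 pools of 1 array against each other, and the labels give no further pairing between arrays.

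Genes called in drone and worker (14 and 23) numbered 4 and 4 under median centring, 2 and 5 under housekeeping centring, 6 and 15 under centring on genes other than odorant receptors, 4 and 13 without normalization, and 0 and 0 with the dyes of the protocol texts. Leaving out 1 array gave 6 to 14 in drone (7, 6 and 8 without arrays 1, 2 and 3) and 13 to 29 in worker (13 without array 2), and 0 to 1 receptors above the control mean in each sex.

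Of 170 recomputed receptor ratios, 29 had the other sign, and none of them was called. These were AmGr8 at 0.074 under plain subtraction, 0.073 in the authors' deposited table, 0.076 under median centring and 0.031 with slides averaged, and AmGr7 at -0.18 with foreground means and -0.025 with slides averaged. Housekeeping centring gave -0.15 for AmGr1 and AmGr4, -0.13 for AmGr5 and AmGr7, -0.11 for AmGr6 and -0.18 for AmGr10. AmGr10 was at -0.019 under centring on genes other than odorant receptors and -0.031 without normalization, where AmGr1 was at -0.0015. Protocol-text dyes gave -0.13 for AmGr1, -0.34 for AmGr3, -0.074 for AmGr5, -0.073 for AmGr10, -0.58 for AmGr6, -0.36 for AmGr7, 0.20 for AmGr8 and -0.095 for AmGr9. Without 1 array, AmGr4 ran from -0.11 to 0.37, AmGr6 from -0.17 to 0.49, AmGr7 from -0.11 to 0.29, AmGr8 from -0.16 to 0.058 and AmGr10 from -0.024 to 0.19. Levels over the control mean without 1 array ran in drone from -0.39 to 0.040 (AmGr2), -0.46 to 0.24 (AmGr4), -0.45 to 0.11 (AmGr9) and -0.44 to 0.17 (AmGr10). In worker they ran from -0.14 to 0.39 (AmGr2), -0.62 to 0.10 (AmGr4), -0.29 to 0.014 (AmGr6), -0.63 to 0.076 (AmGr8) and -0.50 to 0.10 (AmGr10), and AmGr2 was at -0.39 with oligo 4 kept. Of 60 recomputed levels per sex, 5 in drone and 6 in worker were called with the same sign, though not called in the fit reported above. Those 5 in drone lay below the control mean, and those 6 in worker included AmGr3 without array 1. The causes were not tested.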
